A study of Homo sapiens with 6 samples.

Results

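The Hippo core kinases and their direct activators were examined at the level of mRNA in HCT116 cells, an established colorectal cancer cell line. They comprise the kinases STK3, STK4, LATS1 and LATS2, the adaptors SAV1, MOB1A and MOB1B, and the upstream activators NF2, WWC1 and FRMD6. These 10 genes were taken by symbol from the 19871 symbols in the deposited mRNA tables and named by their place in the pathway. RNA was sequenced in 3 groups of 2 libraries each. NC was the negative control, GAS5 received exogenous GAS5, and siYAP received siRNA against YAP. The treatment protocol names a GAS5 plasmid, whereas the siRNA field of the sample labels lists NC, GAS5 and siYAP alike. Which siRNA was used for sequencing, what NC received and whether the paired libraries came from separate cultures are not given in the sources used here. All groups were HCT116, so each value describes this line alone.

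In the Hippo pathway, the kinases STK4 (MST1) and STK3 (MST2), held together with the scaffold SAV1, phosphorylate LATS1 and LATS2 and their cofactors MOB1A and MOB1B. The LATS kinases then phosphorylate YAP and TAZ, which are thereby retained in the cytoplasm or degraded. NF2 (merlin), WWC1 (KIBRA) and FRMD6 (Willin) act upstream at the cell cortex and promote LATS activation. LATS2 and NF2 are also known targets of YAP and TEAD, which closes a negative feedback loop. Since GAS5 was studied for its effect on YAP phosphorylation, the comparison with NC asks whether the mRNAs of the kinases that phosphorylate YAP differed after either treatment.

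Each deposited value is a mean that the authors took over both libraries of a group, so no spread between libraries could be computed and no test was made. Estimated counts of transcripts were summed by gene and scaled to NC, with a factor of 1.085 for GAS5 and 1.061 for siYAP. Log2 fold changes of the scaled counts were taken after adding 2 to each value. Mean counts in the text are given before scaling, so a small difference between them can be opposite in sign to its log2 fold change. The 95% intervals given beside them are exact binomial intervals on the mean counts, treated as if each mean were the count of 1 library, and they cover counting error only. Differences are therefore described as higher or lower in the mean. Over all transcripts the mean counts came to 27206123 (NC), 25521577 (GAS5) and 26298036 (siYAP). YAP1, the targeted gene, had a mean count of 3480 in NC and 1444 in siYAP, with a log2 fold change of -1.18 (interval -1.27 to -1.09). In GAS5 its mean count was 2679, with a log2 fold change of -0.26 (interval -0.33 to -0.19). The paper reports YAP mRNA unchanged by GAS5 in qRT-PCR, and the difference was not tested. The epithelial genes EPCAM, KRT8, KRT18, KRT19 and CDH1 were at mean counts of 2723 or more in every group. The intestinal markers CDX1, VIL1 and LGR5 were at mean counts of 6.0 or less. Of the markers of other cells, PTPRC, PECAM1 and COL1A2 were at 6.0 or less, whereas COL1A1 and DES were at 101.5 or more in every group. The log2 fold change of COL1A1 was 0.67 in GAS5 and 0.60 in siYAP, that of DES was -0.68 and 0.58, and their part in the differences below was not tested. In bulk RNA, fewer cells of a type and less RNA per cell cannot be told apart. Both comparisons share the NC values.

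All 10 genes were expressed in every group, and NF2 and MOB1A had the highest levels per length. FPKM, the number of fragments scaled to transcript length and library size, was summed over the transcripts of a gene. In NC the FPKM was 32.9 for NF2, 31.7 for MOB1A and 24.6 for WWC1. STK3 (18.8), SAV1 (15.6) and STK4 (15.1) lay in the middle in FPKM. The lowest FPKM levels in NC were those of MOB1B (9.61), LATS1 (8.74), FRMD6 (7.22) and LATS2 (3.30). The order of the genes in FPKM was the same in GAS5 as in NC. In siYAP, NF2 was again first, at 40.7, followed by WWC1 at 26.9 and MOB1A at 20.3. The last place passed from LATS2 to FRMD6 in siYAP, at 4.46 and 3.89 respectively. Neighbours in these orders cannot be separated without a spread between libraries.

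None of the 10 genes differed from NC by 1 or more on the log2 scale in either group. At that threshold, the fold used by the study, 0.840% of the 11910 genes that reached 50 mean counts were higher and 0.269% lower in GAS5, and 0.319% were higher and 0.512% lower in siYAP. At a smaller threshold of 0.5, again none of the 10 genes was past it in GAS5, where 3.78% of all genes were higher and 3.32% lower. In siYAP, 3 of the 10 genes (STK3, MOB1A and FRMD6) were lower by 0.5 or more, against 6.52% of all genes, and none was higher, against 4.83%. The median log2 fold change of the 10 genes was -0.10 in GAS5 and -0.09 in siYAP, and that of all genes was 0.00 and -0.01. Of all genes, 10% had a log2 value below -0.32 and 10% one above 0.33 in GAS5, and the same limits were -0.41 and 0.37 in siYAP. In GAS5, LATS2 was the member farthest from 0 and the other members lay between -0.28 and 0.13. In siYAP the members spread from -0.85 for FRMD6 to 0.46 for LATS2.

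**Figure D1:**
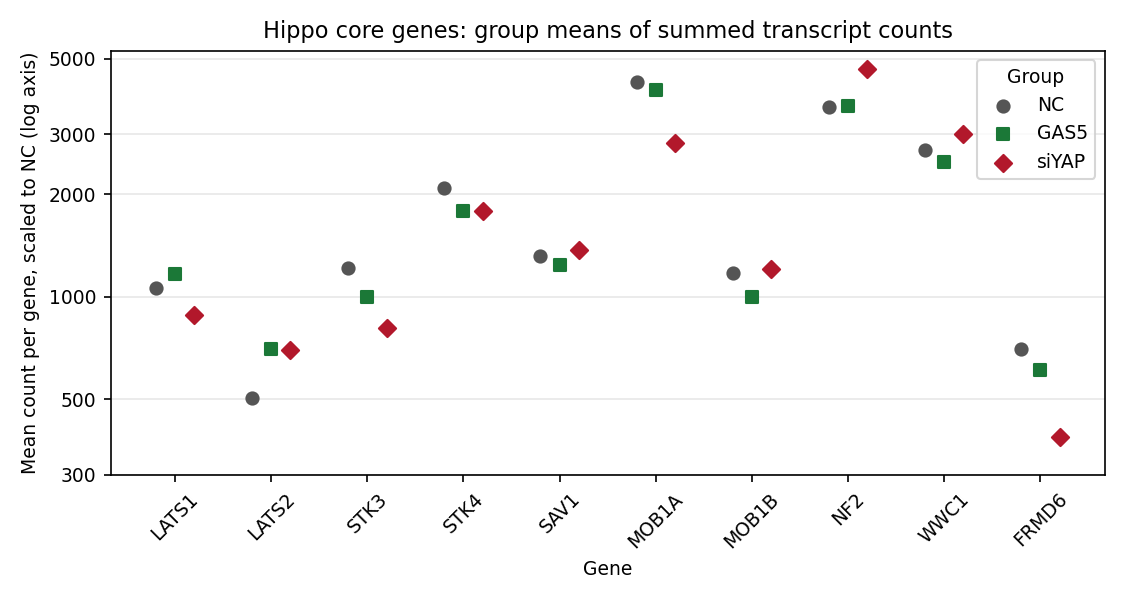
Mean count per gene summed over transcripts and scaled to NC (log axis) for the 10 Hippo core genes, with 1 point for the authors' mean of each group (grey circles NC, green squares GAS5, red diamonds siYAP). The siYAP points of STK3 (808), MOB1A (2820) and FRMD6 (388) lie below the NC points (1211.5, 4279 and 701), and both treated points of LATS2 (702 and 698) lie above its NC point (505.5).

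**Figure D2:**
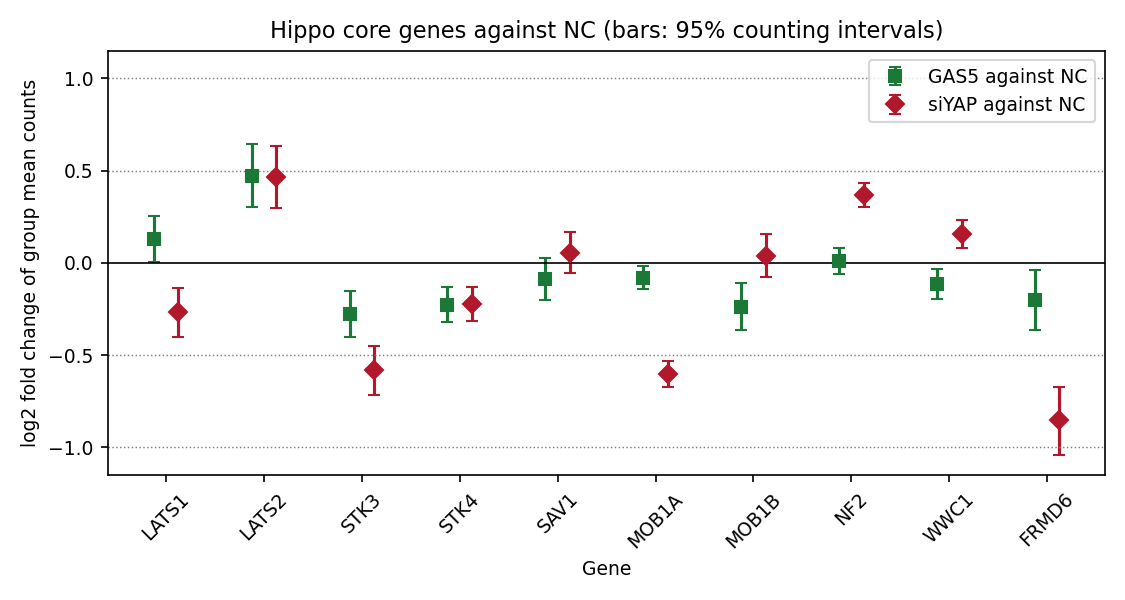
Log2 fold change of group mean counts for each of the 10 genes, GAS5 against NC (green squares) and siYAP against NC (red diamonds). Bars are 95% counting intervals, dotted lines mark 0.5 and 1 in either direction, and only STK3, MOB1A and FRMD6 in siYAP lie past 0.5.

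The MST kinases were lower in the mean in both groups, STK3 more so in siYAP. STK3 lies on the reverse strand of chromosome 8 (98371228 to 98942827, GRCh38, GENCODE 29). Its mean count was 1211.5 in NC, against 920 in GAS5 and 762 in siYAP, before scaling. The log2 fold change was -0.28 in GAS5 (interval -0.40 to -0.15) and -0.58 in siYAP (interval -0.72 to -0.45), which is among the lowest 4.37% of genes. The sum was thus lowest in siYAP and intermediate in GAS5. STK3 counts were divided between ENST00000419617, with mean counts of 855 in NC, against 572 in GAS5 and 543 in siYAP, and the assembled transcript TCONS_00138005, with 317 in NC, against 324 in GAS5 and 193 in siYAP. In siYAP both transcripts were lower, with log2 fold changes of -0.57 and -0.63. In GAS5 they diverged, at -0.46 and 0.15, so the STK3 sum in GAS5 without assembled transcripts was -0.47.

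STK4, the paralog of STK3, differed from NC by nearly the same amount in both groups. The gene spans 44966474 to 45079959 on the forward strand of chromosome 20. Its mean count was 2090 in NC, against 1646 in GAS5 and 1688.5 in siYAP. Its fold changes on the log2 scale were -0.23 (interval -0.32 to -0.13) in GAS5 and -0.22 (interval -0.32 to -0.13) in siYAP. Between 93.2% and 94.4% of its counts belonged to ENST00000372806 in each group. The ratio of STK3 to STK4 in FPKM was 1.25 in NC, against 1.14 in GAS5 and 0.953 in siYAP, and the FPKM sum of both kinases was 33.9 in NC, against 29.3 in GAS5 and 24.8 in siYAP. SAV1, the scaffold that binds the MST kinases, had a mean count of 1318 in NC, against 1142 in GAS5 and 1289.5 in siYAP. Its log2 fold changes were -0.09 (interval -0.20 to 0.03) in GAS5 and 0.05 (interval -0.06 to 0.17) in siYAP, within counting error in both. SAV1 lies on the reverse strand of chromosome 14 (50632058 to 50668331) and overlaps ATL1 on the forward strand. Of the stretches of 50 bases in its main transcript ENST00000324679, 91.5% occur in no other gene. The libraries keep the strand, but whether the counting used it is not stated.

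The MOB1 adaptors, which bind and activate the LATS kinases, separated in siYAP. MOB1A (chromosome 2, 74152528 to 74178898, reverse strand) and MOB1B (chromosome 4, 70902326 to 71022449, forward strand) have coding sequences of the same length in their main transcripts. These are identical at 79.6% of 648 positions, and the longest shared run is 17 bases. The first 90 coding bases (GENCODE 29) are shown because the contrast between both genes rests on reads that can tell them apart, and capitals mark the 15 positions where they differ.
MOB1A: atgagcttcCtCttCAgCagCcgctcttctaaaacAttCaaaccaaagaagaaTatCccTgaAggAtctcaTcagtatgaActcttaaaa
MOB1B: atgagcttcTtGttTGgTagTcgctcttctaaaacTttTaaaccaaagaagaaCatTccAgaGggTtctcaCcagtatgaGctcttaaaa
Of the stretches of 50 bases, 99.2% in the MOB1A transcript ENST00000396049 and 99.9% in the MOB1B transcript ENST00000309395 occur in no other gene.

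MOB1A had a mean count of 4279 in NC, against 3729 in GAS5 and 2657.5 in siYAP. Its log2 fold change was -0.08 (interval -0.14 to -0.02) in GAS5 and -0.60 (interval -0.67 to -0.53) in siYAP, among the lowest 3.98% of genes. The lower count in siYAP was carried by ENST00000396049, which held 98.4% of MOB1A counts in NC and all of them in siYAP, with a log2 fold change of -0.58. MOB1B had a mean count of 1175 in NC, against 917.5 in GAS5 and 1138 in siYAP. Its log2 fold change was -0.24 (interval -0.36 to -0.11) in GAS5 and 0.04 (interval -0.08 to 0.16) in siYAP. Relative to NC, MOB1A was the lower paralog in siYAP. In GAS5 their order depended on the unit, since the ratio of mean FPKM gave log2 values of -0.11 for MOB1A and -0.04 for MOB1B. MOB1B shares part of its locus with DCK on the same strand. Within MOB1B, ENST00000309395 had mean counts of 1047 in NC, against 770 in GAS5 and 964 in siYAP, and the shorter ENST00000396051 had 128 in NC, against 146 in GAS5 and 170 in siYAP. The ratio of MOB1A to MOB1B in FPKM was 3.30 in NC, against 3.13 in GAS5 and 1.83 in siYAP, and their FPKM sum was 41.3, 38.7 and 31.4 in the same order. This ratio also depended on the unit in siYAP, where FPKM gave a log2 value of 0.21 for MOB1B and -0.64 for MOB1A. The short ENST00000396051 weighs more in FPKM than in counts, with 4.185 in NC, against 5.055 in GAS5 and 5.72 in siYAP.

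LATS2 was higher in the mean in both groups, by nearly the same amount. It is annotated on the reverse strand of chromosome 13 (20973032 to 21061547), and LATS2-AS1 overlaps it on the forward strand. Its mean count was 505.5 in NC, against 647 in GAS5 and 658 in siYAP, all of it in ENST00000382592, the only LATS2 transcript in the tables. The log2 fold change was 0.47 (interval 0.30 to 0.64) in GAS5, above 95.7% of genes, and 0.46 (interval 0.30 to 0.63) in siYAP, above 94.0% of genes. LATS2 was the member with the highest log2 value in both comparisons, below the 0.5 threshold in each. Because LATS2 is a known YAP and TEAD target, its RefSeq promoter (GRCh38.p14, chr13:21061537-21061836, reverse strand, 250 bases before the start to 50 after it) is shown, with a match to the TEAD core motif GGAATG in capitals.
LATS2 promoter: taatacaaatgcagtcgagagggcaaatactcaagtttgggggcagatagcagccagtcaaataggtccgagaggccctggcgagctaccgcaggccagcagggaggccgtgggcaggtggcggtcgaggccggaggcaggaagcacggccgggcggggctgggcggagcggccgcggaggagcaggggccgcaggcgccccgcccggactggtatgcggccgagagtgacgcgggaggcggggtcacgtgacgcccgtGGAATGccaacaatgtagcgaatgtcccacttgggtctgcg
The match begins at base 10 from the RefSeq start, counting the start base as 1. The LATS2 gene of GENCODE 29 starts at 21061547, within this window but downstream of the match. Searched on both strands (reverse complement CATTCC), the motif occurs in 14.0% of 35116 RefSeq promoters. RefSeq promoters were at hand for 9 of the 10 genes, and of their 12 promoters only this LATS2 promoter holds the motif. A match describes the letters in this window only, and its part in the LATS2 values was not tested. YAP1 itself was lower in siYAP (log2 -1.18), where LATS2 was higher.

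LATS1 differed from LATS2 in siYAP. LATS1 lies on the reverse strand of chromosome 6 (149658153 to 149718256), with AL358852.1 on the opposite strand. Its mean count was 1065 in NC, against 1072 in GAS5 and 834 in siYAP. This gave a log2 fold change of 0.13 (interval 0.00 to 0.25) in GAS5 and -0.27 (interval -0.40 to -0.14) in siYAP. The ratio of LATS1 to LATS2 in FPKM was 2.65 in NC, against 2.07 in GAS5 and 1.49 in siYAP. Their FPKM sum was 12.0 in NC, against 13.8 in GAS5 and 11.1 in siYAP. Summed over all its transcripts, LATS1 had the larger share of LATS FPKM in all groups. That LATS1 sum includes ENST00000392273, of shorter coding length, at 3.09 in NC, 3.815 in GAS5 and 2.245 in siYAP. ENST00000253339 and ENST00000543571, with 3390 coding bases, had 3.175 and 1.49 in NC, beside 3.295 for LATS2. In GAS5 they had 2.795 and 1.775, beside 4.5, and in siYAP 2.04 and 2.21, beside 4.455.

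By transcript, the LATS1 values in siYAP went in different directions. ENST00000253339 and ENST00000543571 share a coding length of 3390 bases. Together these transcripts had 679 mean counts in NC, against 661 in GAS5 and 678 in siYAP, with a log2 fold change of 0.08 in siYAP (interval -0.07 to 0.24). Their share of LATS1 counts was 63.8% in NC, against 61.6% in GAS5 and 81.2% in siYAP. This sum nets out unequal values. Within the pair, ENST00000253339 had mean counts of 374 in NC, against 310 in GAS5 and 233 in siYAP, and ENST00000543571, which is longer, had 305 in NC, against 351 in GAS5 and 445 in siYAP. Their log2 fold changes in siYAP were -0.60 and 0.63. The remaining LATS1 transcripts summed to 385 mean counts in NC, against 412 in GAS5 and 157 in siYAP, a log2 fold change of -1.20 in siYAP (interval -1.49 to -0.94). They are mainly ENST00000392273, with a coding length of 2070 bases and mean counts of 220 in NC, against 256 in GAS5 and 154 in siYAP, and the assembled TCONS_00125945, with 162 in NC, against 156 in GAS5 and listed at 0 in siYAP. Without assembled transcripts the LATS1 log2 fold change in siYAP was -0.03. The coding sequence of TCONS_00125945 is not known here, so it may or may not encode the full-length kinase. How reads were divided among overlapping transcripts is not stated, so the division carries an error that the intervals do not include. These groups of transcripts were formed after the values were seen.

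**Figure D3:**
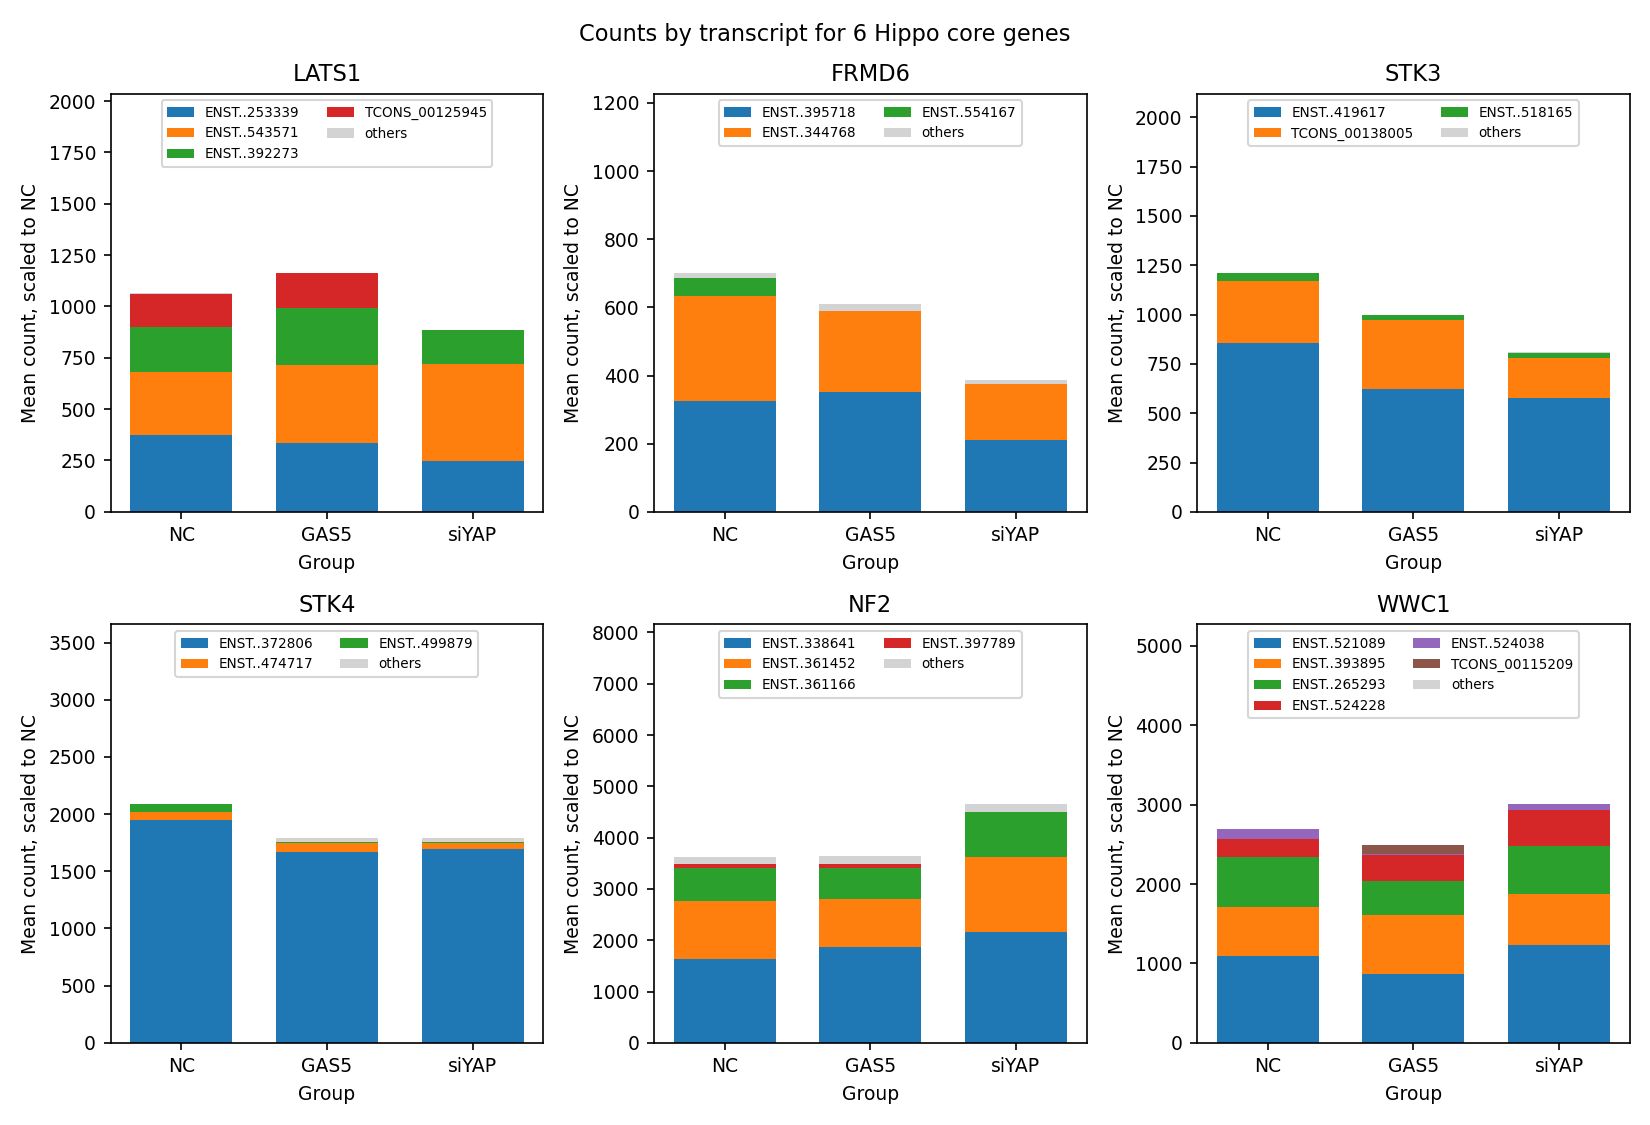
Mean counts scaled to NC, stacked by transcript, in NC, GAS5 and siYAP for LATS1, FRMD6, STK3, STK4, NF2 and WWC1. Colours mark transcripts with at least 2% of a gene's counts in some group, and grey marks the others. In LATS1 the assembled TCONS_00125945 is missing in siYAP, and in FRMD6 both main transcripts are shorter bars in siYAP.

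Among the upstream activators, FRMD6 was lower and NF2 higher in the siYAP mean. FRMD6, a FERM domain protein related to fly Expanded, is annotated on the forward strand of chromosome 14 (51489100 to 51730727), with FRMD6-AS1 and FRMD6-AS2 on the opposite strand. Its mean count was 701 in NC, against 561 in GAS5 and 365 in siYAP. This gave a log2 fold change of -0.20 (interval -0.37 to -0.04) in GAS5 and -0.85 (interval -1.04 to -0.67) in siYAP, among the lowest 1.16% of genes. FRMD6 thus had its lowest sum in siYAP, and its interval there reaches past 1. The main transcripts ENST00000344768 and ENST00000395718 differ in their coding sequence by a segment of 24 bases in exon 4 (chr14:51701136-51701159, forward strand, GRCh38), shown in capitals with its flanks because these transcripts carry most of the counts.
FRMD6 ENST00000344768: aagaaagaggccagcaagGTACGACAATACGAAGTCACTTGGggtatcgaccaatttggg
ENST00000344768, with the segment, had mean counts of 308 in NC, against 219 in GAS5 and 155 in siYAP. ENST00000395718, without it, had 325 in NC, against 325 in GAS5 and 200 in siYAP. Both were lower in siYAP, with log2 values of -0.90 and -0.61, and in GAS5 they were -0.37 and 0.12. Together they held 90.2% of FRMD6 counts in NC and 97.1% in siYAP, and their summed log2 fold change in siYAP was -0.75 (interval -0.94 to -0.56). A further FRMD6 transcript, ENST00000554167, had 52.9 mean counts in NC and was listed at 0 in GAS5 and siYAP.

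NF2 encodes merlin, a membrane-cytoskeleton linker that recruits LATS. It lies on the forward strand of chromosome 22 (29603556 to 29698598). NF2 had a mean count of 3615 in NC, against 3353 in GAS5 and 4392 in siYAP. Its log2 fold change was 0.01 (interval -0.06 to 0.08) in GAS5 and 0.37 (interval 0.30 to 0.43) in siYAP, above 89.5% of genes. The GAS5 value was within counting error, and the siYAP value lay below 0.5. Its 3 main transcripts differ by coding segments. ENST00000361166 holds 33 coding bases of exon 16 that ENST00000338641 lacks (chr22:29683020-29683052, forward strand, GRCh38), in capitals after the end of the exon before it, and ENST00000361452 lacks exon 3 (chr22:29639090-29639212), whose bases are given in lower case. They are shown because they tell apart the transcripts that carry the NF2 counts.
NF2 ENST00000361166: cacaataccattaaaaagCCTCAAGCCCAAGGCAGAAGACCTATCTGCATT
NF2 exon 3: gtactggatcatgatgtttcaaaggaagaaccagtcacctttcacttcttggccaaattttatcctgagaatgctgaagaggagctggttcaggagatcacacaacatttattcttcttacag
In siYAP the log2 fold changes of these NF2 transcripts lay close together, at 0.40 for ENST00000338641, 0.37 for ENST00000361452 and 0.41 for ENST00000361166. In GAS5 they were 0.20, -0.28 and -0.12, so the NF2 sum near 0 in GAS5 was made up of unequal parts. ENST00000338641 had mean counts of 1628 in NC, against 1724 in GAS5 and 2031 in siYAP. The corresponding mean counts of ENST00000361452, the NF2 transcript without exon 3, were 1134, 859 and 1384. ENST00000361166 had 655, 554 and 819 in that order.

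WWC1, which encodes KIBRA, a partner of merlin and FRMD6 relatives, had a mean count of 2699 in NC, against 2294 in GAS5 and 2838 in siYAP. It is annotated on the forward strand of chromosome 5 (168291651 to 168472303). The WWC1 log2 fold change was -0.12 (interval -0.20 to -0.04) in GAS5 and 0.16 (interval 0.08 to 0.23) in siYAP. These are small differences of opposite sign in the mean. By transcript, ENST00000521089 had 1089 in NC, against 802 in GAS5 and 1162 in siYAP, and ENST00000265293 had 621, 397 and 569. After the values were seen, the Ensembl transcripts of WWC1 were grouped by coding length. ENST00000521089 and ENST00000265293 have the longest, of 3357 and 3339 bases. Their sum had a log2 fold change of -0.39 in GAS5 (interval -0.50 to -0.29) and 0.10 in siYAP. The other Ensembl transcripts of WWC1, with coding lengths of 3238, 2665 and 1332 bases, had 0.12 in GAS5 (interval -0.01 to 0.25) and 0.25 in siYAP. Among these, ENST00000393895 had mean counts of 628 in NC, against 678 in GAS5 and 602 in siYAP, and ENST00000524228 had 227, 308 and 425. ENST00000524038 had 134 in NC, against 1.47 in GAS5 and 79.4 in siYAP, and the assembled TCONS_00115209 had 108 in GAS5 and was listed at 0 in NC and siYAP.

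For single transcripts, the shares past a log2 fold change of 1 lay near those of all transcripts. The 10 genes have 53 transcripts in the tables, of which 46 were above 0 in some group. In GAS5, 37 had at least 10 mean counts in NC or GAS5, and 4 (10.8%) were higher and 5 (13.5%) lower by 1 or more, against 12.1% and 10.5% of all transcripts. In siYAP, 35 were compared, with 3 (8.57%) higher and 5 (14.3%) lower, against 10.2% and 13.1%. The following transcripts with low counts were singled out after their values were seen. In both comparisons STK4 ENST00000372801, NF2 ENST00000353887 and NF2 ENST00000361676 were higher. STK4 ENST00000372801 was listed at 0 in NC and had mean counts of 25.5 in GAS5 and 31.2 in siYAP. NF2 ENST00000353887 had 20.7 in NC, against 52.5 in GAS5 and 56.8 in siYAP, and NF2 ENST00000361676 had 3.24, 20.7 and 21.7. STK4 ENST00000499879, MOB1A TCONS_00084681 and FRMD6 ENST00000554167 were lower in both. STK4 ENST00000499879 had 67.6 in NC, against 14.6 in GAS5 and 10.7 in siYAP, and MOB1A TCONS_00084681 had 68.9 in NC, against 13.0 in GAS5 and no count in siYAP, where it is listed at 0. WWC1 TCONS_00115209 completes the higher transcripts in GAS5, and WWC1 ENST00000524038 and NF2 ENST00000334961 (21.2 in NC, 5.06 in GAS5, 11.7 in siYAP) complete the lower ones. In siYAP the other lower ones were LATS1 TCONS_00125945 and NF2 ENST00000397789, which had 77.9 in NC, against 77.9 in GAS5 and no count in siYAP, where it is listed at 0. None of the 3 transcripts that were higher in both was the main transcript of its gene.

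The GC content of a transcript moved with the siYAP differences. Genes were divided by the GC content of their main transcript into 10 groups of nearly equal size. The median log2 fold change in siYAP over all genes ran from -0.21 in the group of lowest GC content to 0.27 in that of highest GC content. In the lowest group, 13.8% of all genes were lower by 0.5 or more and 1.10% higher, and in the highest group 0.509% were lower and 15.7% higher. In GAS5 the medians ran from -0.07 to 0.08. STK3 (38.3% GC), MOB1A (37.3%) and MOB1B (34.3%) belong to the lowest group and LATS1 (39.7%) and FRMD6 (41.5%) to the next one. STK4 (43.4%) and SAV1 (42.8%) follow, and LATS2 (51.8%), NF2 (56.0%) and WWC1 (56.3%) lie in the upper part. The 3 genes lower by 0.5 or more in siYAP thus belong to groups where 13.8% or 14.7% of all genes were that low. With the median of its own GC group subtracted, FRMD6 in siYAP was at -0.66, MOB1A at -0.39 and STK3 at -0.37, so FRMD6 alone remained lower by 0.5 or more. MOB1B was then at 0.25, SAV1 at 0.24, LATS2 at 0.45, NF2 at 0.27, WWC1 at 0.00, STK4 at -0.04 and LATS1 at -0.08. The part of GC content in these differences was not tested.

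**Figure D4:**
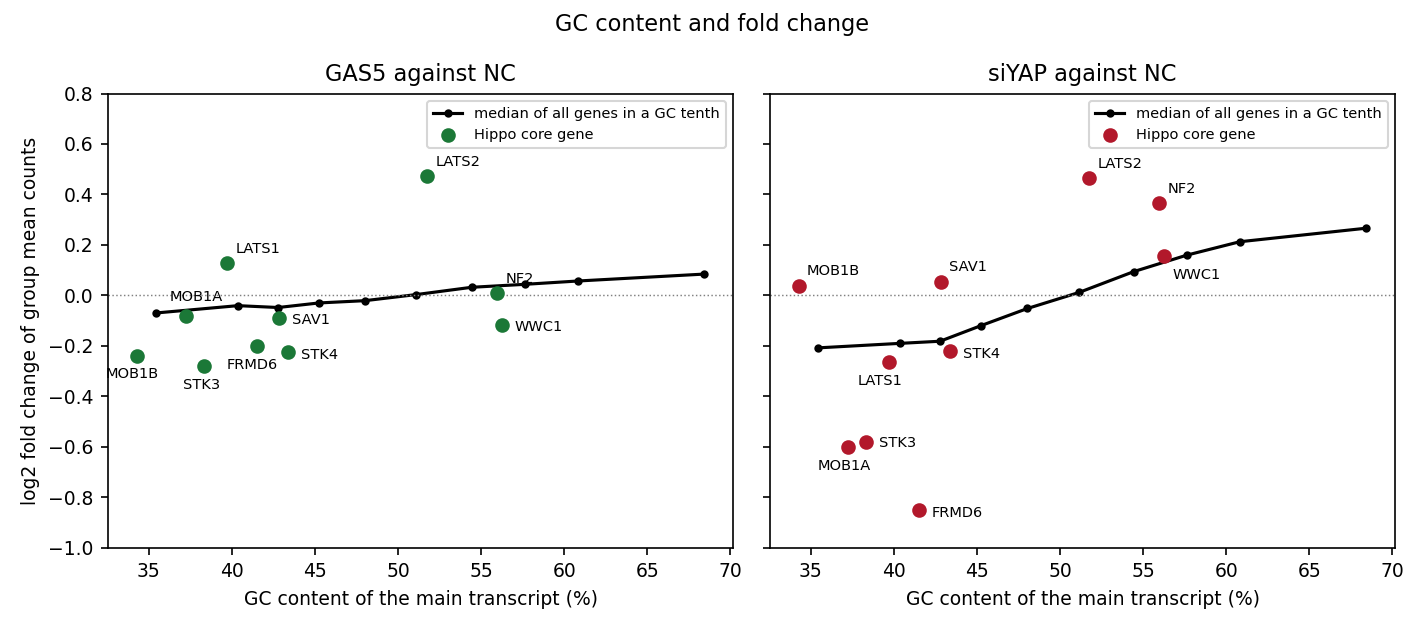
Log2 fold change of group mean counts against the GC content of the main transcript (%) for the 10 Hippo core genes, GAS5 on the left and siYAP on the right, with the black line joining the medians of all genes in 10 groups of GC content. In siYAP the line climbs from -0.21 to 0.27, and FRMD6 (-0.85) lies farthest below it.

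The other genes of the Hippo pathway are given by their counts past 0.5 on the log2 scale, to be read beside the shares of all genes (3.78% higher and 3.32% lower in GAS5, 4.83% higher and 6.52% lower in siYAP) and with few genes in each list. Of 9 upstream kinases compared (the TAOK and MAP4K families, MINK1 and TNIK), TAOK3 was lower by 0.5 or more in GAS5 and none was past 0.5 in siYAP, with medians of -0.18 and -0.12. TAOK3, which can phosphorylate the MST kinases, had mean counts of 483 in NC, against 304 in GAS5 and 395 in siYAP (log2 -0.55 in GAS5). The LATS relatives STK38 and STK38L were between -0.19 and -0.01 in both groups. Of 16 other upstream regulators, RASSF1 was higher in GAS5 and WWC3, AMOTL2 and RASSF4 were higher in siYAP, with medians of -0.02 and 0.14. RASSF1, a scaffold that binds the MST kinases, had 317 in NC, against 664 in GAS5 and 315 in siYAP (log2 1.18 in GAS5). WWC3, a relative of WWC1, had 395 in NC, against 344 in GAS5 and 634.5 in siYAP (log2 0.77 in siYAP), and RASSF4 had 81.5, 77.5 and 118 (log2 0.61 in siYAP). AMOTL2, an angiomotin that binds YAP and LATS, was at log2 0.43 in GAS5 and 0.54 in siYAP. Of 15 inhibitors of MST or LATS, STRIP2, a STRIPAK subunit, was lower in siYAP (log2 -0.53, mean counts 235 in NC, against 227 in GAS5 and 152.5 in siYAP) and none was past 0.5 in GAS5, with medians of 0.05 and -0.07. Of 7 effectors, YAP1 alone was past 0.5, and only in siYAP, with medians of -0.09 and 0.00. Of 9 YAP target genes compared, which include LATS2, NF2, AMOTL2, TEAD1 and AJUBA from the lists above, CTGF (log2 0.72) and CYR61 (log2 1.09) were higher in GAS5, and AMOTL2 and AXL (log2 0.59) were higher in siYAP. In siYAP, CTGF was at 0.16 (interval -0.30 to 0.62) and CYR61 at 0.29 (interval 0.12 to 0.46), and F3 was the lowest target gene, at -0.28. The paper reports CTGF and CYR61 lower after YAP knockdown by qRT-PCR and western blot, the blot being of DLD1 cells. It also reports less CTGF protein after GAS5 overexpression, in SW620 cells, whereas CTGF mRNA was higher in GAS5 here. The cause of these differences from the paper was not tested. The medians of the target genes were 0.30 in GAS5 and 0.29 in siYAP. MAP4K1, FRMD1 and ANKRD1 had mean counts below 50 and were not compared.

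**Figure D5:**
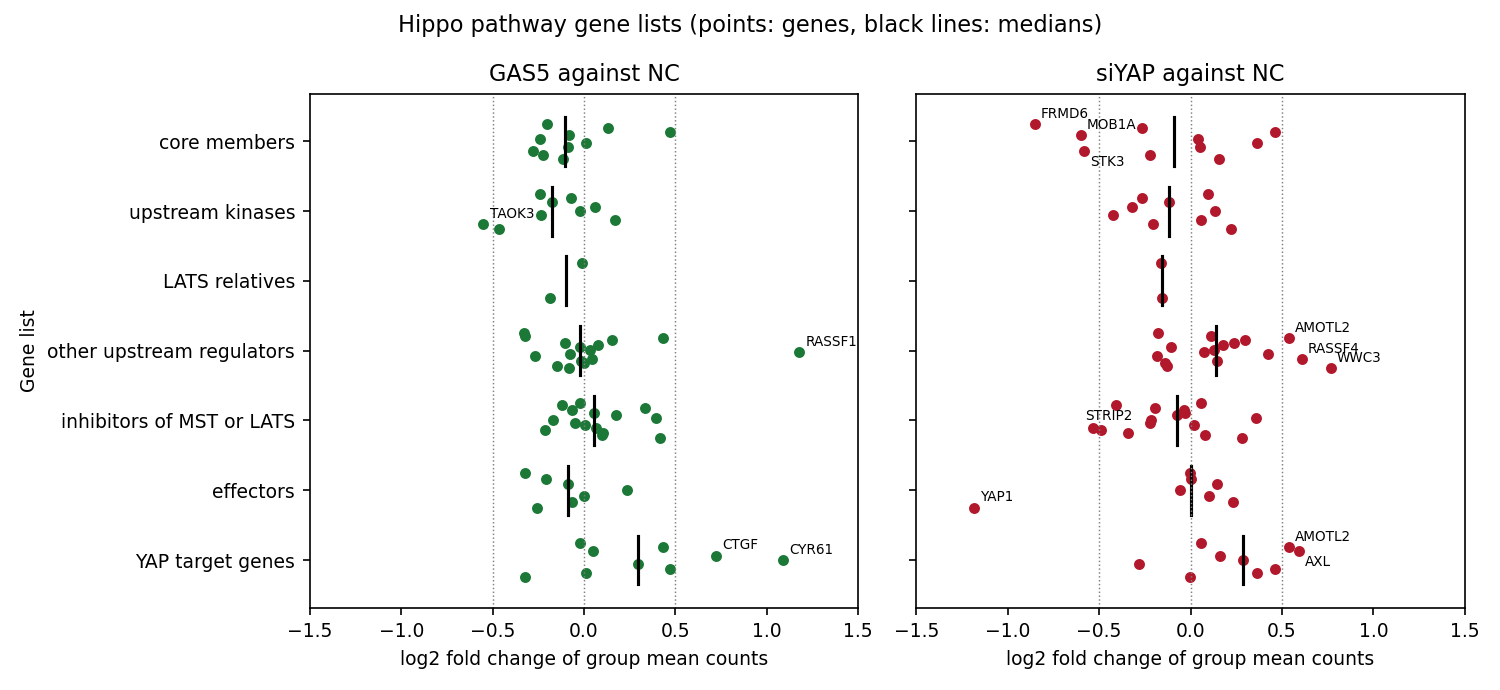
Log2 fold change of group mean counts for 7 lists of Hippo pathway genes, GAS5 against NC on the left and siYAP against NC on the right. Each point is a gene that reached 50 mean counts, black lines are list medians, dotted lines mark 0 and 0.5 in either direction, and genes past 0.5 are named. Some genes stand in more than 1 list.

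For LATS2 and FRMD6, the members farthest from 0 in GAS5 and siYAP, the 3 genes of most similar pattern were taken by Euclidean distance over the 3 groups among 11907 genes. For LATS2 they were PSPN, STX1A and SCAND1, at distances of 0.015, 0.019 and 0.020. PSPN had log2 fold changes of 0.47 in GAS5 and 0.48 in siYAP, beside 0.47 and 0.46 for LATS2. For FRMD6 they were CLMP, NRIP1 and POTEE, at 0.0094, 0.020 and 0.023. NRIP1 had -0.20 in GAS5 and -0.83 in siYAP, beside -0.20 and -0.85 for FRMD6. With 3 groups, close patterns are frequent among so many genes.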

How the data were processed

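LncRNA-sequencing libraries of HCT116 cells (6 libraries, 2 per group) were strand-specific, made with dUTP in the second strand. The submitters' processing notes name TopHat2 2.1.1. The counting tool, genome build and annotation are not given in the sources used here. The authors deposited 1 table per treatment, which holds estimated counts (expected counts) and FPKM per mRNA transcript, each a mean over the libraries of a group. Counts were not normalized further by the authors. FPKM values were scaled by the authors to transcript length and library size, with 0 written as a small constant that was set back to 0 here. The authors' columns of fold change, p-value and FDR were not used.

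Tables were joined by transcript identifier (92866 transcripts) and symbols were read from the siYAP table. The 339 transcripts without a symbol held 0.224% of NC counts, 0.195% of GAS5 counts and 0.209% of siYAP counts and were left out of gene sums. Scaling used TMM from edgeR 4.0.16 in R 4.3.3 on each pair of group means, after filterByExpr with a minimum count of 10. The quasi-likelihood test of edgeR needs libraries and was not run. DESeq2 1.42.0 gave alternative size factors on rounded counts. Other steps used Python 3.11.15 with scipy 1.17.1, pandas 2.3.3 and numpy 2.4.6, and were tested on simulated data with known fold changes.

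Depth is given by the totals of mean counts, 25521577 to 27206123 per group. Intervals are 95% Clopper-Pearson intervals conditional on the summed counts of a pair. They are wider than those of the counts behind a mean of 2 libraries, and do not cover the spread between cultures. PCR copies are not independent molecules.

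The members and gene lists were chosen with earlier results of these data known. Named were all 10 members, their transcripts with at least 10% of a member's counts in any group or past log2 1 with at least 100 mean counts, and genes of the other Hippo lists past log2 0.5 with a mean count of at least 50. The 3 genes of nearest pattern were named for the member with the largest difference in each comparison. Coordinates, transcript structures and coding sequences come from GENCODE 29 on GRCh38, and promoters from RefSeq on GRCh38.p14, both matched by identifier or symbol. Assembled transcripts have no sequence here. Long non-coding transcripts, GAS5 among them, are not analysed here.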

Additional observations from a re-analysis of the deposited data

How the results depend on the processing

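No paired analysis was possible because the deposited values are group means without libraries, and for the same reason leaving out each library was not run. The alternatives were DESeq2 size factors, scaling by total counts, no low-count filter, a prior count of 0.5, FPKM in place of counts, Ensembl transcripts only, the main transcript only, and, added after the data were seen, subtraction of the median of the GC group. The fold changes past 0.5, those of STK3, MOB1A and FRMD6 in siYAP, kept their sign. Over all members and alternatives, 138 of 160 fold changes stayed within their counting interval. None left it under the alternatives that change only the scaling, the filter or the prior count. Subtracting the GC median moved every siYAP value except that of LATS2 out of its interval. With the GC median subtracted, the members lower by 0.5 or more in siYAP numbered 1 in place of 3. When 10 mean counts were required in each of the 3 groups, 26 member transcripts were compared, with 1 higher and 1 lower by 1 or more in GAS5 and 1 higher and 1 lower in siYAP. This filter removes transcripts listed at 0 in a group by construction. Over all alternatives, the siYAP log2 fold change ran from -0.89 to -0.61 for FRMD6, from -0.64 to -0.39 for MOB1A, from -0.64 to -0.37 for STK3 and from -0.60 to -0.03 for LATS1. LATS2 ran from 0.45 to 0.47 in GAS5 and from 0.43 to 0.47 in siYAP. The sign changed under some alternative for LATS1, NF2 and FRMD6 in GAS5 and for MOB1B and WWC1 in siYAP, and the cause was not tested. Depth leaves the widest counting interval for FRMD6 in siYAP (-1.04 to -0.67), and the missing spread between libraries limits every difference.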
